A study of Mus musculus with 6 samples.

Results

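The genes described are those of the voltage-gated calcium and sodium channels, the TRP channels, the store-operated calcium entry proteins, the calcium release channels of the reticulum, and the pumps and exchangers that remove calcium from the cytosol. They were taken by symbol from the deposited expression table, which gave 72 genes of the 22246 listed. Another 19 annotated mouse symbols of the same families had no row in the table and were not analysed here. The name pattern also caught Trpc4ap, which encodes an adaptor protein, and Trpc5os, named for its place opposite Trpc5, so these 2 of the 72 are no members of the families. Junctophilins, calsequestrins, STIM proteins and phospholamban are counted with the channels and pumps they serve. The series compared 3 RNA sequencing libraries of HL-1 cells given a control shRNA with 3 libraries of HL-1 cells given an shRNA against Smyd4, a gene of the SET and MYND domain methyltransferase family. HL-1 is an established mouse line described as atrial cardiomyocyte, and all libraries carry the strain label C57BL/6 and the tissue label heart. No time after delivery of the shRNA is given, nor whether replicates were separate cultures, so each p-value reflects the spread between these libraries, which may be technical.

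In a working heart cell, sodium channels carry the upstroke of the action potential and voltage-gated calcium channels admit the calcium that triggers ryanodine receptors on the sarcoplasmic reticulum. Calcium then returns to the reticulum through SERCA pumps or leaves through the sodium-calcium exchanger and the plasma membrane calcium pumps (PMCA). Cells that do not beat rely more on release through inositol trisphosphate (IP3) receptors and on store-operated entry, in which STIM proteins sense an empty store and open ORAI channels.

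The target and the cell type were examined first. Smyd4 stood at 12.5, 12.8 and 13.5 FPKM (fragment counts divided by gene length in kilobases and scaled for depth) in the controls and at 12.6, 12.3 and 11.9 FPKM in the libraries labelled Smyd4 shRNA. The groups overlapped, with a log2 change of -0.07 and a 95% interval, unadjusted as are all given here, of -0.16 to 0.02 (limma with Benjamini-Hochberg adjustment, adjusted p = 0.173). An exact two-sided permutation test gave p = 0.2, where 0.1 is the smallest p this design allows. Target mRNA was therefore not shown to be lower, against the label, and every direction given here is relative to the label alone. Of 14 atrial cardiomyocyte markers, 12 had a row, and Myh6, Myl7, Myl4, Actc1, Tnni3, Gja5 and Tbx5 stayed below 0.3 FPKM in every library. Gja1, Gata4, Tnnt2 and Nkx2-5 were present, and Tnnt2 (7.11 to 11.7 FPKM) and Nkx2-5 (3.57 to 7.68 FPKM) rose in the labelled libraries (limma, adjusted p = 6.22e-06 and 0.000215). Nppb, the natriuretic peptide gene induced by cardiac stress, fell from 2.15 to 0.484 FPKM (limma, adjusted p = 0.000961), which made 3 of 5 tested atrial markers higher and 1 lower. Nppb reached the mean of 1 FPKM needed for this test through the control libraries, with 4 to 15 reads per labelled library. Skeletal muscle markers summed to between 83.7 and 85.9 FPKM in the controls and between 16.7 and 17.9 FPKM in the labelled ones, with 4 of 4 tested members lower. Chrna1 and Myod1, with control means of 49.9 and 18.8 FPKM, gave most of that control sum. Of the same list, Myh3 and Tnni1 stayed below 0.3 FPKM in every library, and Ckm and Myh8 had no row. Neuron markers went from sums of 152 to 159 FPKM down to 29.9 to 31.8 FPKM (4 of 4 tested lower) and smooth muscle markers from 437 to 453 FPKM down to 298 to 308 FPKM (3 of 3 lower). Syt1 of the neuron list and Myh11 of the smooth muscle list stayed below 0.3 FPKM, and the neuron genes Rbfox3 and Snap25 had no row. Fibroblast markers summed to 239 to 246 and 270 to 282 FPKM, with 2 higher and 2 lower of 5 tested, and Lum, Postn and Thy1 below 0.3 FPKM. Endothelial markers summed to at most 0.168 and 0.567 FPKM, and macrophage markers to 1.86 to 2.15 and 1.78 to 1.90 FPKM, with 1 tested and not called. Beside these counts, 48.3% of all tested genes were called, 25.1% higher and 23.3% lower. The summed atrial list held 166 to 168 and 173 to 175 FPKM, of which Gja1 alone gave means of 145.7 and 145.1 FPKM. Nppa and Sln of that list had no row. Of the contractile genes on the atrial list, Myh6, Myl7, Myl4, Actc1 and Tnni3 are therefore near 0 in both groups, while Tnnt2 is expressed. The text keeps HL-1 only as the name on the label.

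Of the 72 genes, 23 averaged 1 FPKM or more across the 6 libraries and were tested, and 49 lay under that level. Among the 23, 4 were higher and 9 lower in the labelled libraries at an adjusted p under 0.05, and 10 did not pass. This share of 56.5% stands beside 48.3% of all 11325 genes tested, so the number of calls by itself is near the background. Lower calls made up 39.1% of the tested members against 23.3% of all genes, and higher calls 17.4% against 25.1%. The median log2 change was -0.03 for the tested members and 0.02 for all tested genes, while the median size without sign was 0.16 and 0.13. In 15 of the 23 the 3 values of one group all lay on one side of the other, which was also true of 57.8% of all tested genes. Falls were the larger changes, since 4 members fell by at least 1.5-fold on the log2(FPKM + 0.5) scale (4.87% of all genes did) and 0 rose by as much (2.04% of all genes). In bulk RNA, fewer cells expressing a gene and less RNA per cell cannot be told apart.

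**Figure D1:**
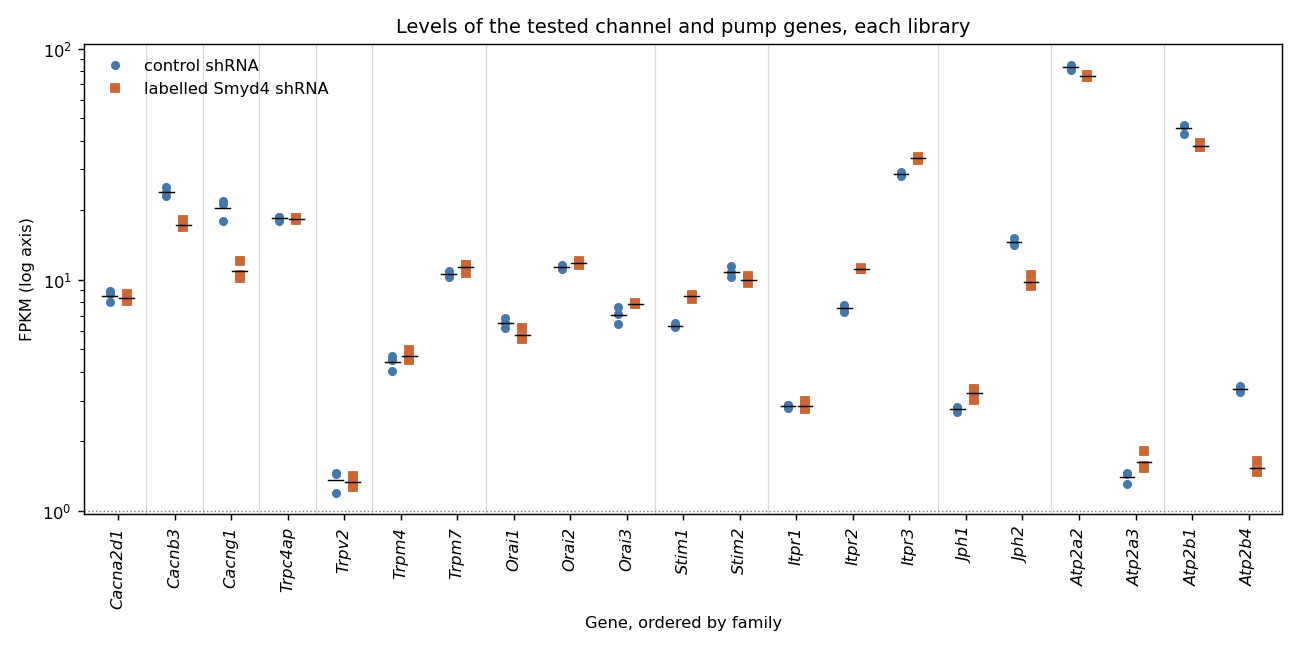
FPKM of 21 of the tested genes in each library on a log axis, ordered by family; circles are the 3 control libraries, squares the 3 libraries labelled Smyd4 shRNA, short lines the group means and the dotted line 1 FPKM. Control means ran from 1.37 FPKM for Trpv2 to 82.9 FPKM for Atp2a2, and the widest gaps between groups are those of Atp2b4 and Cacng1.

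Scn7a, an atypical sodium channel that responds to sodium rather than voltage, stood at 0.171, 0.282 and 0.129 FPKM in the controls against 0.0626, 0.0701 and 0.0658 FPKM in the labelled libraries, with no overlap. It was under the level for the main test, and edgeR's quasi-likelihood test on recovered reads placed it lower (adjusted p = 0.000211). Scn2a, the neuronal pore gene, had between 20 and 33 reads per control library, with 14 to 28 per labelled one, and was not called (edgeR, adjusted p = 0.355). Scn4a, the skeletal muscle pore gene, stayed at or below 0.012 FPKM in every library.

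Voltage-gated calcium channels were represented by their auxiliary subunits. None of the 9 pore genes listed reached a mean of 0.1 FPKM, and their summed level was 0.211 ± 0.0138 FPKM in the controls and 0.0804 ± 0.0180 FPKM in the labelled ones. Cacna1c, the pore of the cardiac L-type channel, reached at most 0.00684 FPKM in a library, and Cacna1s, the skeletal muscle pore, 0.0129 FPKM. Most of the pore signal came from Cacna1a and Cacna1b, which encode neuronal P/Q-type and N-type channels. Cacna1b had 22, 11 and 20 reads in the controls and 1, 1 and 0 in the labelled ones, a fall in edgeR (adjusted p = 1.26e-06). It met edgeR's filter on low counts through the control libraries alone. The part of the neuron markers, which moved the same way, was not tested. Cacna1a had 20, 27 and 22 reads against 15, 17 and 15 and did not pass (edgeR, adjusted p = 0.139).

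Cacng1, the gamma subunit of the skeletal muscle calcium channel (chromosome 11, 107703218 to 107716522 on GRCm38), held 17.9, 21.9 and 21.3 FPKM in the controls and 12.1, 10.2 and 10.4 FPKM in the labelled ones. The groups did not overlap and the mean was 1.87-fold lower (log2 change -0.87, standard error 0.09; limma, adjusted p = 9.93e-05). Cacnb3, a cytosolic beta subunit that brings pores to the membrane, held 23.9, 23.0 and 25.2 FPKM against 18.1, 16.9 and 17.04 FPKM. It was 1.39-fold lower, also without overlap (log2 change -0.46, standard error 0.04; limma, adjusted p = 6.4e-05). Cacnb1, the beta subunit of skeletal muscle, lay just under the level for the main test, with a mean of 0.946 FPKM over the 6 libraries. Its values were 1.46, 1.08 and 1.11 FPKM against 0.515, 0.804 and 0.704 FPKM, lower in edgeR (adjusted p = 3.09e-05). Cacnb2, the main beta subunit of heart, held 0.480 ± 0.00739 and 0.473 ± 0.0163 FPKM and was not called (edgeR, adjusted p = 0.839). Cacna2d1, the alpha2delta subunit bound by gabapentin, had 8.53 ± 0.495 and 8.32 ± 0.310 FPKM, with a 95% interval of the log2 change from -0.15 to 0.08 (limma, adjusted p = 0.622). Cacng7, which belongs to the subfamily that traffics AMPA receptors, held 0.157 and 0.222 FPKM on 6 to 18 reads and was not called (edgeR, adjusted p = 0.29). Skeletal muscle markers moved the same way as Cacng1 and Cacnb1, with Myod1 at 18.8 and 5.31 FPKM and Chrna1 at 49.9 and 9.59 FPKM, and their part in these falls was not tested.

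**Figure D2:**
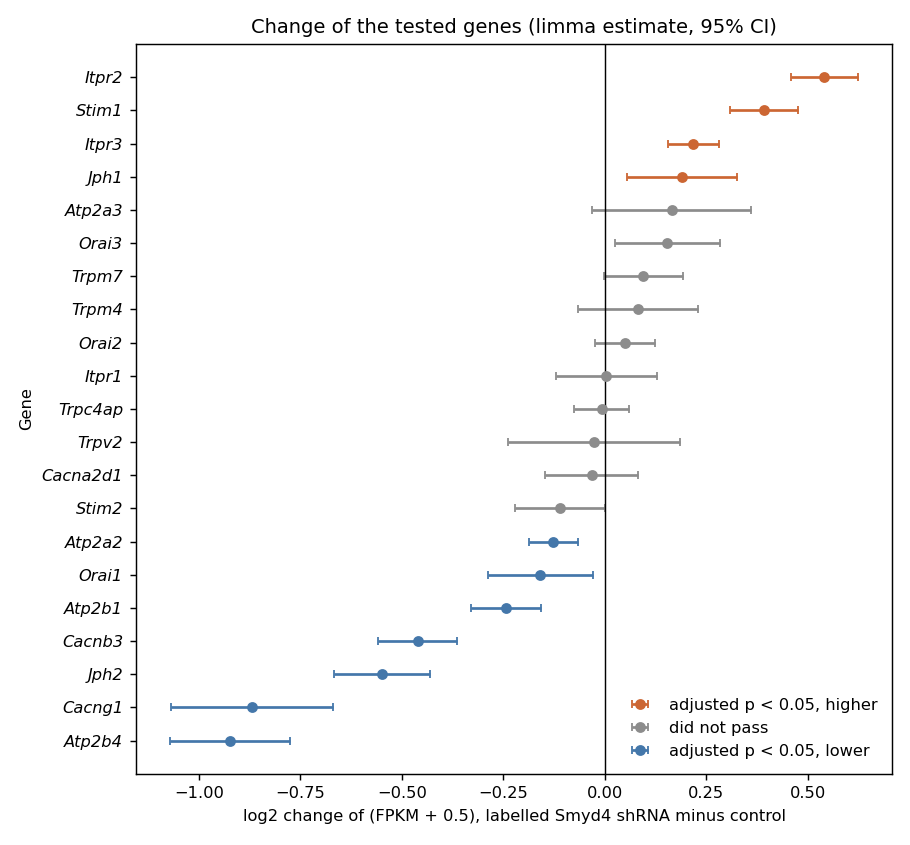
Change of 21 of the tested genes on the log2(FPKM + 0.5) scale, labelled Smyd4 shRNA minus control, with points for the limma estimate, bars for the 95% confidence interval and colour for the call at an adjusted p of 0.05. Estimates run from -0.92 for Atp2b4 to 0.54 for Itpr2, with 7 of these genes called lower, 4 called higher and 10 not called.

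All 3 IP3 receptor genes were expressed, and 2 of them rose. Itpr2, the receptor isoform most sensitive to IP3 and the main one of cardiac myocytes (chromosome 6, 146108299 to 146502223), held 7.75, 7.56 and 7.22 FPKM in the controls and 11.1, 11.2 and 11.1 FPKM in the labelled ones. The labelled libraries lay close together and well above every control (1.48-fold; log2 change 0.54, standard error 0.04; limma, adjusted p = 1.02e-05). Itpr3, the isoform common in epithelial and proliferating cells, held 29.4, 28.7 and 28.2 FPKM against 33.9, 33.6 and 33.0 FPKM. Its rise was smaller, at 1.17-fold (log2 change 0.22, standard error 0.03; limma, adjusted p = 0.000364). Itpr1, the main isoform of brain, held 2.84 ± 0.0506 and 2.85 ± 0.117 FPKM, and its 95% interval ran from -0.12 to 0.13 on the log2 scale (limma, adjusted p = 0.963). The summed level of the family went from 39.1 ± 0.910 to 47.5 ± 0.364 FPKM. The share of Itpr2 in it went from 19.2% ± 0.257 to 23.5% ± 0.163, and that of Itpr3 from 73.5% ± 0.246 to 70.5% ± 0.447.

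Ryanodine receptors stood far lower per length, and their FPKM summed to 0.785 ± 0.0583 FPKM in the controls and 0.586 ± 0.0912 FPKM in the labelled ones. Ryr1, the skeletal muscle isoform (chromosome 7, 29003344 to 29125179), held 0.240, 0.204 and 0.243 FPKM against 0.0651, 0.113 and 0.0799 FPKM. These are 105 to 134 reads in each control and 36 to 62 in each labelled library, a 2.66-fold lower mean (edgeR, adjusted p = 4.32e-08). Ryr3, the isoform with the widest tissue range, held 0.520 ± 0.0402 and 0.434 ± 0.0597 FPKM, and the groups overlapped. It passed in edgeR (adjusted p = 0.029) and not in DESeq2 (adjusted p = 0.147). Ryr2, the cardiac isoform, held 0.0372, 0.0401 and 0.0304 FPKM in the controls and 0.0659, 0.0775 and 0.0545 FPKM in the labelled libraries, with no overlap, which passed in edgeR (adjusted p = 0.0133) and not in DESeq2 (adjusted p = 0.0963). Ryr1 thus took 29.1% ± 0.657 of the family's summed FPKM in the controls and 14.5% ± 1.83 in the labelled ones, and Ryr2 4.62% ± 0.939 and 11.3% ± 1.66.

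**Figure D3:**
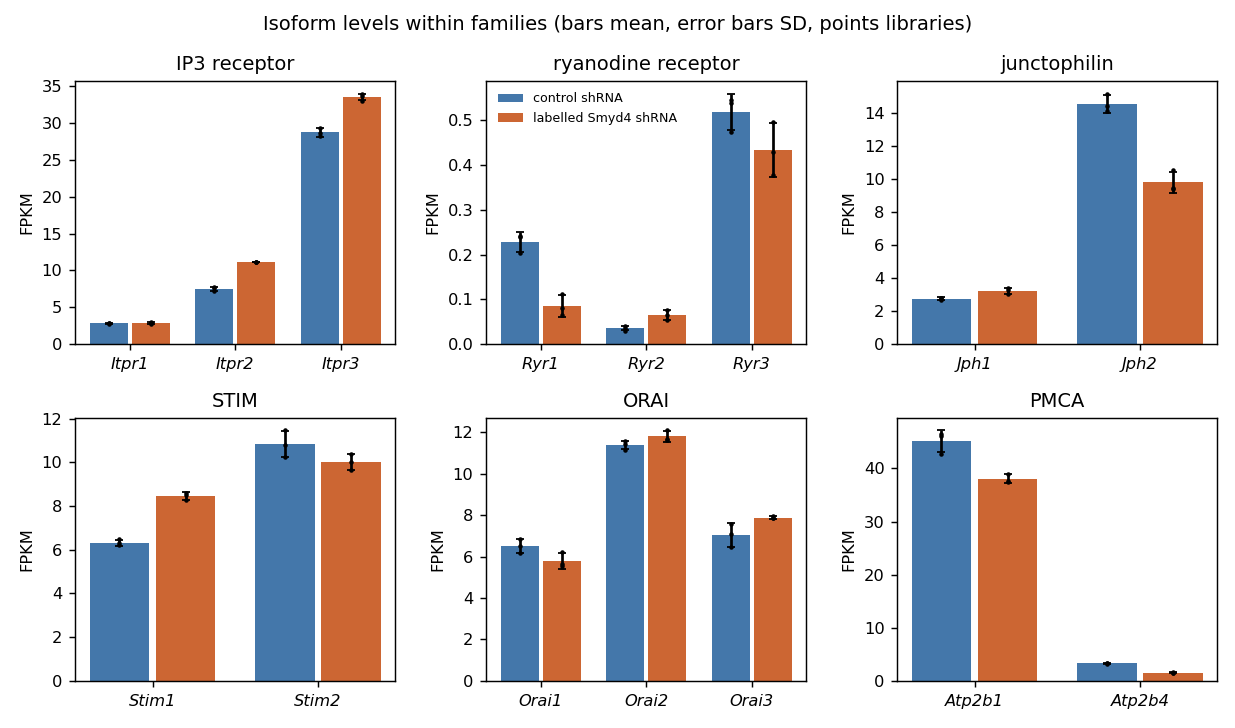
Mean FPKM of isoforms in 6 families, with bars for the group means, error bars for the SD of 3 libraries, points for the libraries and a separate linear axis per family. Itpr2 and Itpr3 were higher in the labelled libraries, at 11.2 and 33.5 FPKM, Jph2 fell to 9.79 FPKM while Jph1 was at 3.22 FPKM, and Atp2b4 fell to 1.54 FPKM; the ryanodine receptor axis ends below 1 FPKM.

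Junctophilins, which hold the reticulum against the surface membrane at release sites, moved in opposite directions. Jph2, the cardiac and most abundant member here (chromosome 2, 163336242 to 163397993), held 14.1, 15.1 and 14.4 FPKM in the controls and 10.5, 9.36 and 9.47 FPKM in the labelled ones. No libraries overlapped and the mean was 1.49-fold lower (log2 change -0.55, standard error 0.05; limma, adjusted p = 6.84e-05). Jph1, the skeletal muscle member, held 2.79, 2.82 and 2.67 FPKM against 3.37, 3.01 and 3.30 FPKM. It rose by 0.19 on the log2 scale (standard error 0.06; limma, adjusted p = 0.0283), a call that was lost when any one library other than labelled replicate 2 was left out (adjusted p from 0.0543 to 0.0895) and in DESeq2 (adjusted p = 0.078). Casq2, the cardiac calsequestrin that buffers calcium in the reticulum, held 0.764, 0.895 and 0.879 FPKM against 0.490, 0.506 and 0.741 FPKM. The groups were apart, and the count tests differed on it, with adjusted p = 0.0217 in edgeR and 0.125 in DESeq2. Casq1, the skeletal muscle form, had at most 4 reads per library.

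Among the 5 store-operated entry genes Stim1 had the largest change. This sensor of reticulum calcium (chromosome 7, 102267824 to 102436848) held 6.48, 6.22 and 6.29 FPKM in the controls and 8.27, 8.50 and 8.62 FPKM in the labelled ones. All labelled libraries lay above all controls, 1.34-fold on average (log2 change 0.39, standard error 0.04; limma, adjusted p = 6.61e-05). Its relative Stim2, which responds to smaller losses from the store, held 10.8 ± 0.605 and 10.01 ± 0.376 FPKM and did not pass (limma, adjusted p = 0.0934), though edgeR called it lower (adjusted p = 0.0242). The share of Stim1 in the pair went from 36.9% ± 1.79 to 45.8% ± 0.921. Of the pore genes, Orai1 was called lower, at 6.85, 6.18 and 6.51 FPKM against 6.20, 5.53 and 5.62 FPKM, and the groups overlapped (log2 change -0.16, standard error 0.06; limma, adjusted p = 0.0469). That call was lost without control replicate 1, control replicate 3, labelled replicate 2 or labelled replicate 3 (limma, adjusted p from 0.0994 to 0.147) and in both count tests (adjusted p = 0.0546 in edgeR and 0.237 in DESeq2). Orai2 held 11.4 and 11.8 FPKM (limma, adjusted p = 0.242) and Orai3 7.04 and 7.87 FPKM (limma, adjusted p = 0.0517). Both had groups that did not overlap, and the 95% intervals of their log2 changes were -0.03 to 0.12 and 0.02 to 0.28.

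The promoters of 4 genes are shown because Jph2 and Cacnb3 fell, and Itpr2 and Stim1 rose, by the most among called members with a RefSeq entry starting within 200 bases of the authors' gene start. Each covers 250 bases before and 50 after the RefSeq start on GRCm38.p6, written 5′ to 3′ on the gene's strand. Capitals mark GGGCGG or its reverse complement CCGCCC (GC box) and CAGCTG (a variant of the E-box bound by myogenic and other basic helix-loop-helix factors).
Jph2, chr2:163397944-163398243, minus strand: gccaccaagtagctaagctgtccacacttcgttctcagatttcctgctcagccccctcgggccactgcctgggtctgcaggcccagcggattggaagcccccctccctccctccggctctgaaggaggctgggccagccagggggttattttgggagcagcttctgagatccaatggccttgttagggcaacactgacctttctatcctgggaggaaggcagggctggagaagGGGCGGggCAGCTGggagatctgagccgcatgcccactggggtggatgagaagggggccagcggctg
Cacnb3, chr15:98632078-98632377, plus strand: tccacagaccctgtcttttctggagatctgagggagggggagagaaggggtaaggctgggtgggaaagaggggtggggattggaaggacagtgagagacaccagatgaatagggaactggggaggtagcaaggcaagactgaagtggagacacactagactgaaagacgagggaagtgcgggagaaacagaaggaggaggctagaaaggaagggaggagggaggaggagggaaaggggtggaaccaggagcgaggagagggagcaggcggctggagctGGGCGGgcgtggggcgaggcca
Itpr2, chr6:146502174-146502473, minus strand: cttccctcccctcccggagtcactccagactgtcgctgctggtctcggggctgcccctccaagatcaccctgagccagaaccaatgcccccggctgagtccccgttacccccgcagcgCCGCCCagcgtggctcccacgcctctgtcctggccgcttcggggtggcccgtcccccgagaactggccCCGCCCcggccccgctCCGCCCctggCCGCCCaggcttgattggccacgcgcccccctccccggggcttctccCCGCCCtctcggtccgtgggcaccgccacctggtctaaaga
Stim1, chr7:102267569-102267868, plus strand: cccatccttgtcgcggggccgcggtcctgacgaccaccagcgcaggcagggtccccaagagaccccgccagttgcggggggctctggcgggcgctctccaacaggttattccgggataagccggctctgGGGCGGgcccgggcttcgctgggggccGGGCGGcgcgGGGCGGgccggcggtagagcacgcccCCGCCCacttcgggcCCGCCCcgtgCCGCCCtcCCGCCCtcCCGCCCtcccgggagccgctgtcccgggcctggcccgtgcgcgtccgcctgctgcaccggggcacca

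The promoters of both genes that rose held more GC boxes, 5 in Itpr2 and 8 in Stim1, than those of the genes that fell, with 1 each in Jph2 and Cacnb3. The G and C content was 73.3% for Itpr2 and 78.7% for Stim1 against 63.0% for Jph2 and 59.7% for Cacnb3. These 4 promoters were picked by the size of the change. The number of boxes per promoter was not counted over all promoters, and a link to direction was not tested. A GC box occurred in 35.7% of all 32851 RefSeq promoters of this length, CAGCTG in 16.3% and the TATA box letters TATAAA, searched on both strands, in 13.6%. Jph2 carried CAGCTG once, at position -9 from the start, and none of the 4 held TATAAA. Over the 8 called members with an entry, the first listed promoter held a GC box in 4 of 5 genes that fell and 3 of 3 that rose, and CAGCTG in 2 of 5 and 0 of 3. A match is a run of letters and says nothing about binding.

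The most abundant SERCA and PMCA genes both fell. Atp2b4, a PMCA isoform tied to signalling complexes at the membrane (chromosome 1, 133699457 to 133801041), held 3.26, 3.46 and 3.37 FPKM in the controls and 1.49, 1.65 and 1.47 FPKM in the labelled ones. The groups lay far apart, 2.19-fold on average (log2 change -0.92, standard error 0.06; limma, adjusted p = 1.28e-05). Atp2b1, the housekeeping PMCA and 93.1% ± 0.351 of the family's summed FPKM in the control libraries, held 46.1, 46.5 and 42.8 FPKM against 37.7, 39.0 and 37.4 FPKM. It was 1.19-fold lower, also without overlap (log2 change -0.24, standard error 0.04; limma, adjusted p = 0.00112). Atp2a2, the SERCA gene of heart and the most abundant member of all, held 84.6, 83.1 and 81.0 FPKM against 75.3, 75.4 and 77.0 FPKM. The mean fell by 8.47% (log2 change -0.13, standard error 0.03; limma, adjusted p = 0.00462). Atp2a3, the SERCA of blood and epithelial cells, held 1.40 ± 0.0799 and 1.63 ± 0.154 FPKM, with separate groups and no call (limma, adjusted p = 0.145). Atp2a1, the skeletal muscle SERCA, held 0.240 and 0.195 FPKM and did not pass (edgeR, adjusted p = 0.493). Pln, which encodes the SERCA inhibitor phospholamban, stayed at or below 0.0169 FPKM in every library.

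The sodium-calcium exchanger gene Slc8a1, the main calcium exit route of cardiac myocytes (chromosome 17, 81388691 to 81649607), had reads in one group only. The control libraries held 19, 16 and 10 reads (0.271, 0.230 and 0.134 FPKM), and the 3 labelled libraries held 0. Set against a floor of 3 reads over the whole labelled group, the level was at least 14.8-fold lower. DESeq2 on recovered reads called it (log2 change -6.33, adjusted p = 1.32e-05), and edgeR's filter on low counts left it out. The authors' deposited table lists it as lower with a log2 change of -0.91. That value is on a scale unlike the fold given here. For Cacna1b the authors give -0.97, where DESeq2 on recovered reads gave -4.72. Slc8a3, the exchanger of brain and skeletal muscle, stayed at or below 0.0215 FPKM.

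**Figure D4:**
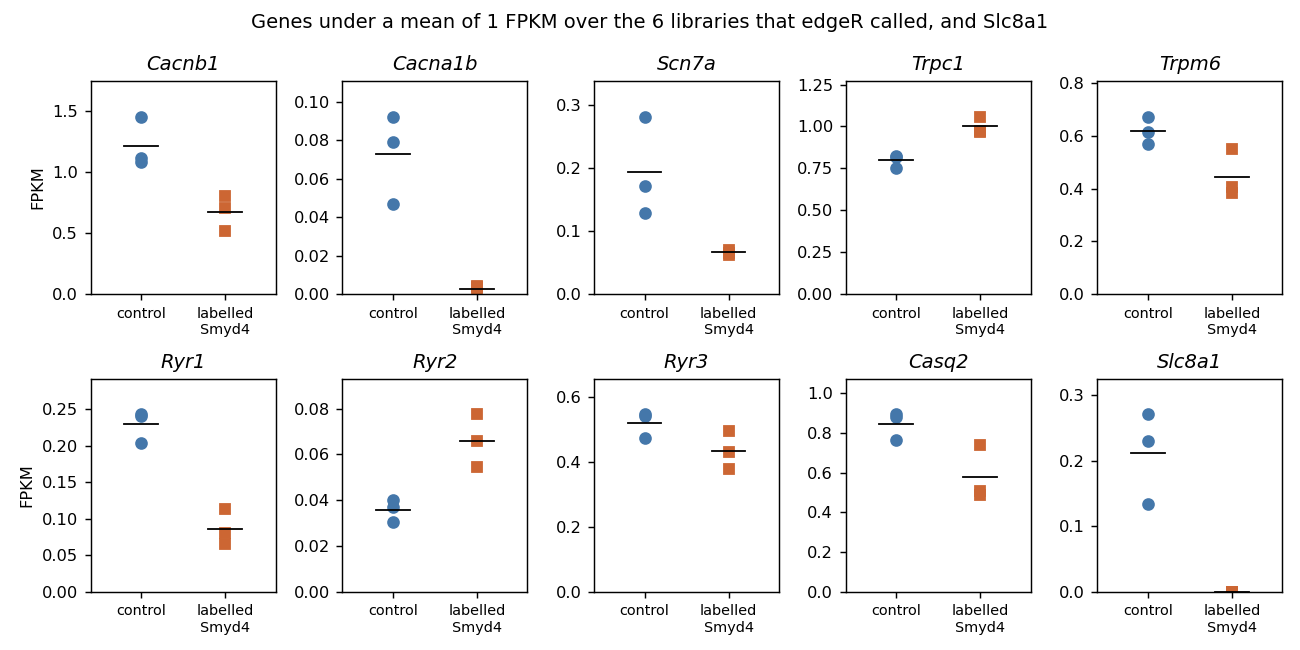
FPKM of 9 genes under a mean of 1 FPKM over the 6 libraries that edgeR called, and of Slc8a1, with circles for control libraries, squares for labelled libraries and lines for the means; each panel has its own linear axis from 0. Slc8a1 is at 0 in the 3 labelled libraries and Cacna1b near 0, while Ryr2 and Trpc1 are the panels with higher labelled values.

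TRP channels, a family of cation channels gated by lipids, heat, stretch or internal calcium, gave no call in the main test. Trpm7, a channel fused to a kinase that carries magnesium and calcium, was the most abundant channel of the group at 10.5 ± 0.333 and 11.3 ± 0.510 FPKM (limma, adjusted p = 0.0991), and edgeR called it higher (adjusted p = 0.0346). Trpm4, which opens on internal calcium and passes sodium, held 4.40 ± 0.346 and 4.69 ± 0.253 FPKM, with a 95% interval of the log2 change from -0.07 to 0.23 (limma, adjusted p = 0.327). Trpv2, linked to stretch, held 1.37 ± 0.148 and 1.33 ± 0.0756 FPKM, with an interval from -0.24 to 0.18 (limma, adjusted p = 0.832). The adaptor gene Trpc4ap held 18.5 ± 0.426 and 18.4 ± 0.161 FPKM (limma, adjusted p = 0.848). Among the lower genes, Trpc1 held 0.822, 0.820 and 0.751 FPKM in the controls and 0.967, 1.06 and 0.974 FPKM in the labelled ones, with no overlap. It passed in edgeR (adjusted p = 0.00904) and not in DESeq2 (adjusted p = 0.0654). Trpm6, the magnesium channel of kidney and gut, held 0.674, 0.616 and 0.570 FPKM against 0.406, 0.383 and 0.549 FPKM, lower in edgeR (adjusted p = 0.00879) and not called in DESeq2 (adjusted p = 0.0709). Trpv6, a calcium channel of epithelia, held 0.141 and 0.243 FPKM (edgeR, adjusted p = 0.0595).

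Under the level for the main test lay 49 members in all. Of these, 11 reached a mean of 0.2 FPKM in one group and are all named above, and the other 38 stayed lower in both. EdgeR could test 15 of the 49 and called 9, a share of 60.0% against 35.4% of all genes under 1 FPKM that it tested. Its filter on low counts, the same for all genes, can be met through 1 group alone, as with Cacna1b. Its 2 higher and 7 lower calls stand beside 9.66% and 25.7% of those genes. Over all levels edgeR tested 38 members and called 23, where it called 49.5% of all genes, with 7 higher (23.3% of all genes) and 16 lower (26.3%). The authors' deposited table lists 16 of the 72 (22.2%, against 25.2% of all genes). Of the 13 members called here 11 are in it, and Orai1 and Jph1 are not.

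Genes whose products work with these channels and pumps were counted in 4 lists. Over all tested genes 48.3% were called, 25.1% higher and 23.3% lower. Among genes of release and uptake at the reticulum, 2 of 16 tested rose, 8 fell and 6 missed the threshold, and the median log2 change was -0.11, against 0.02 for all tested genes. The low-affinity calcium binders of the secretory pathway Rcn1 (84.5 to 63.2 FPKM) and Rcn3 (12.4 to 7.41 FPKM) fell, while the chaperone calnexin gene Canx (143 to 157 FPKM) and Sri, which encodes the ryanodine receptor partner sorcin (34.4 to 38.3 FPKM), rose. The adjusted p of these 4 lay from 5.77e-06 to 0.00904 (limma). Among channel regulators and anchors, 3 of 14 rose, 6 fell and 5 did not pass, beside 25.1% higher and 23.3% lower over all genes, with a median of -0.11. Bin1, which shapes the T-tubules where calcium channels cluster, fell from 112 ± 0.742 to 54.1 ± 1.14 FPKM (log2 change -1.04, standard error 0.02; limma, adjusted p = 4.91e-08). The kinase A subunit gene Prkaca fell from 65.6 to 54.5 FPKM. Ank2, an ankyrin that anchors the exchanger and the sodium pump, rose from 1.05 to 1.71 FPKM, and Gpd1l, known for its effect on cardiac sodium current, from 9.35 to 12.4 FPKM.

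Calmodulin, CaMKII, calcineurin and NFAT genes comprised 18 tested, of which 5 rose, 4 fell and 9 missed the threshold, with a median of 0.03, so the number of calls is near the 48.3% of all tested genes. The calcineurin catalytic genes Ppp3ca (33.3 to 40.6 FPKM) and Ppp3cc (9.498 to 12.5 FPKM) rose. The calcineurin inhibitor genes Rcan1 (11.4 to 8.57 FPKM) and Rcan2 fell, the latter from 2.89 ± 0.0792 to 0.624 ± 0.0633 FPKM (log2 change -1.60, standard error 0.08; limma, adjusted p = 1.94e-06). Rcan2 reached the level for the main test through the control libraries. Among partner genes averaging under 1 FPKM, edgeR placed Rrad, a small GTPase that inhibits L-type channels (1.25 to 0.122 FPKM), and the class IIa deacetylase gene Hdac9 (0.806 to 0.0926 FPKM) lower (adjusted p = 2.55e-09 and 1.18e-11). EdgeR also placed Nfatc4 lower (adjusted p = 3.62e-05). Of these low partner genes, Camk2a, Nfatc2, Mef2c, Trdn, Atp2c2 and Akap5 were higher (edgeR, adjusted p from 9.24e-06 to 0.014). Over all genes under 1 FPKM that edgeR tested, 9.66% were called higher and 25.7% lower. Rrad and Hdac9 met edgeR's filter on low counts through the control libraries, with 3 to 8 and 7 to 15 reads per labelled library. Atp2c2 and Akap5 met it through the labelled libraries, with 3 to 9 and 5 to 11 reads per control library. In mitochondria, Golgi and endolysosomes, 5 of 18 tested rose, 5 fell and 8 did not pass, with a median of -0.02, again near the 48.3% called over all genes. Mcu, the pore of the mitochondrial calcium uniporter, rose from 12.2 ± 0.434 to 19.2 ± 0.0849 FPKM. Mcub, the dominant-negative uniporter subunit, fell from 43.5 to 35.4 FPKM and the mitochondrial sodium-calcium exchanger gene Slc8b1 from 13.4 to 10.7 FPKM. The adjusted p of these 3 lay from 2.69e-06 to 0.000119 (limma). The 3 calmodulin genes and the 2 abundant CaMKII genes did not pass.

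**Figure D5:**
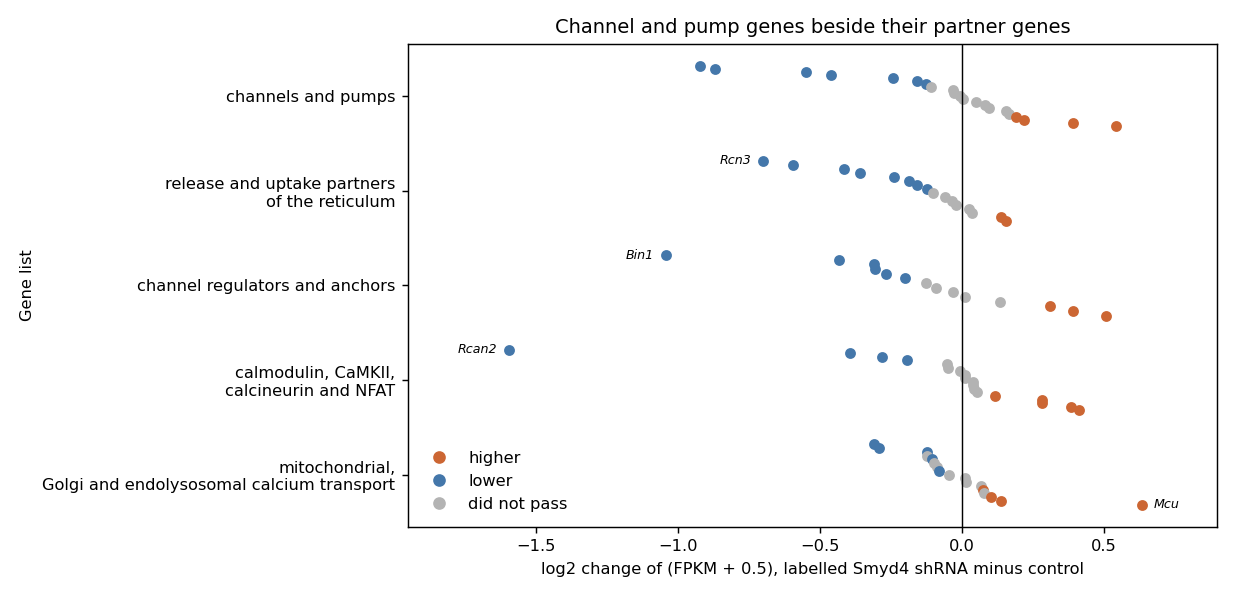
log2 change on the log2(FPKM + 0.5) scale, labelled Smyd4 shRNA minus control, for tested channel and pump genes and tested genes of 4 lists of partner genes; colour gives the limma call, and partner genes with the largest changes are named. Rcan2 and Bin1 lie farthest to the left at -1.60 and -1.04, and Mcu farthest to the right at 0.64.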

How the data were processed

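RNA from 3 control and 3 labelled Smyd4 shRNA libraries was sequenced. Per the submitters' processing notes, TopHat2 2.0.9, Bowtie2 2.0.6 and build GRCm38 were used. No source used here names the counter, annotation or strand setting. The authors deposited FPKM for 22246 genes and, for 5616 called genes, a normalized signal, which is reads divided by a size factor, with gene lengths, coordinates, log2 fold changes and p-values. FPKM were scaled by those same factors. All comparison table values (100%, tolerance 0.0001) were whole multiples of 1 step, so reads were recovered for all genes, with lengths from the authors, GENCODE M21 or the smallest length that fits (5018 genes, whose reads are then lower bounds). Totals lay between 20755547 and 26387516 reads per library.

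Symbols matched 22134 identifiers. Genes averaging 1 FPKM or more were tested on log2(FPKM + 0.5), which understates changes of low genes, with limma 3.58.1 (trend) in R 4.3.3, adjusted over all genes at 0.05. EdgeR 4.0.16 and DESeq2 1.42.0 on recovered reads were alternatives, named beside genes under that level. Fits were tested on simulated data. The genes, partner lists and marker lists were chosen with earlier results of these data known. Tested members are named, apart from a few genes that are not reported here and are left out of the figures; lower members are named from 0.2 FPKM, with values where groups were apart on at least 20 reads. Cacna1b, Scn7a, Ryr2, Ryr3, Slc8a1 and members cited only for low levels, and the partners averaging under 1 FPKM, were chosen after their values were seen. Up to 4 partner genes per list were taken by adjusted p, 2 per direction first. Of the 23 tested members 8 overlap another listed gene, among them Itpr2, Itpr3 and Atp2a2, so reads could be shared. Levels are means ± SD of 3 libraries, and folds are ratios of means.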

Additional observations from a re-analysis of the deposited data

How the results depend on the processing

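Over 15 alternatives, 11 of the 13 called members kept direction and call, and Orai1 and Jph1 did not. Jph1 also lost its call without a filter on low values (limma, adjusted p = 0.0711), and Orai1 without a filter (0.102), with a filter at 0.2 FPKM (0.0615) and after quantile normalization (0.125). Over all alternatives p ranged from 0.00913 to 0.0895 for Jph1 and from 0.0201 to 0.237 for Orai1. EdgeR on recovered reads, which tests more low genes, called 23 members against 13, 7 higher against 4 and 16 lower against 9. Calls were gained by Trpm7 without labelled replicate 1 (0.0339), by Orai3 after quantile normalization (0.0335) and without control replicate 2 (0.0165), by Stim2 without control replicate 1 (0.0448) and by Atp2a3 after quantile normalization (0.0477), all in limma with adjusted p. The sign turned only in members that were not called. After quantile normalization Trpc4ap was at 0.0094 and Trpv2 at 0.0604 on the log2 scale. Itpr1 was at -0.00614 with median-of-ratios scaling and at -0.00417 in edgeR. With 1 library left out, the range was -0.0771 to 0.000193 for Cacna2d1, -0.0262 to 0.00422 for Trpc4ap, -0.0939 to 0.0116 for Trpv2 and -0.0248 to 0.0232 for Itpr1; the cause was not tested. No scaling moved the median of all genes by over 0.1. The labels state no pairing, and deviations from the group means of same-numbered libraries had correlations of -0.03, 0.02 and 0.007. These correlations cannot show whether the libraries were made in pairs. A replicate block gave 12 called members, 3 higher and 9 lower, and 5141 genes against 5474, with Jph1 lost (limma, adjusted p = 0.0561). Genes with a few reads per library set the limit of what could be compared.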
